A study of Mus musculus with 2 samples.

Results

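The genes described here are Txnip, its arrestin-domain relatives Arrdc1, Arrdc2, Arrdc3 and Arrdc4, and the thioredoxin system, made up of Txn1, Txn2, Txnrd1, Txnrd2 and Txnrd3. They were chosen by gene name in the array files, and all 10 were among the 22140 genes measured on both arrays. They were read by 16 probes at 25 spots per array, and 15 of these probes were well above background on both arrays. Expression was measured on 2 one-colour mouse arrays, with 1 array for each genotype. The CSE-KO array held RNA of beta cells from mice lacking CSE (cystathionine gamma-lyase, a hydrogen sulfide-producing enzyme encoded by Cth), and the CSE-WT array, the control, held RNA of beta cells from wild-type mice. Both groups were C57BL/6J mice aged 6 months, and both had been fed a high-fat diet. The number of animals per sample, the tissue reach of the knockout and the way the cells were isolated are not given in the sources used here. With 1 array per genotype no difference has a replicate check and no test was made. Sizes are read against fixed rules of 2-fold and 1.5-fold.

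Txnip encodes thioredoxin-interacting protein, which binds reduced thioredoxin and blocks it. It also lowers glucose uptake and is among the best known glucose-induced genes of the beta cell, where the glucose-sensing factors ChREBP (Mlxipl) and MondoA (Mlxip), with their partner Mlx, act through a pair of E-box-like elements in its promoter. By fold Txnip is an alpha-arrestin, as are the Arrdc proteins, which bring NEDD4-family ubiquitin ligases to membrane proteins. Thioredoxins reduce disulfides in other proteins, and thioredoxin reductases, which are selenoproteins, recharge them with electrons from NADPH.

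The promoters of Txnip and Arrdc4 are shown because the probes of these 2 genes gave the largest differences among the arrestin-domain genes. The sequences are the 250 bases before the start site from RefSeq (GRCm38.p6), at chr3:96557707-96557956 on the plus strand for Txnip and chr7:68749239-68749488 on the minus strand for Arrdc4. Capitals mark the ChoRE-like pair (carbohydrate response element) in Txnip, the E-box in Arrdc4, and CCAAT boxes on either strand in both.
Txnip: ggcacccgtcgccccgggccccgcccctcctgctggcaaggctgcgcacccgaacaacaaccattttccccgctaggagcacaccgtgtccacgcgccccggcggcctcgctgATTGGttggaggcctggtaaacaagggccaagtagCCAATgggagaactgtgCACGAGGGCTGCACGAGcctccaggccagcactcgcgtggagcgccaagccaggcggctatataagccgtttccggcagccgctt
Arrdc4: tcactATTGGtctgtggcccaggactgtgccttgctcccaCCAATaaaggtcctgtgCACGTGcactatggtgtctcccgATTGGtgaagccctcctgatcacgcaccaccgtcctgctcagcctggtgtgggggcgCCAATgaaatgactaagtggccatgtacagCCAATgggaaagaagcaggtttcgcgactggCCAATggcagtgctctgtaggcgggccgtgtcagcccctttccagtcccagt
The pair was searched as CACGNG, any 5 bases and CACGNG again, on both strands, and in Txnip it lay at -85 to -69 relative to the start site. Of 32851 promoter windows of the same length in the table, 15 (0.0457%) held it, and no other member's window did. The full E-box CACGTG, present in 6.02% of windows, lay at -193 to -188 in Arrdc4. By these patterns Txnip held the pair and Arrdc4 a single E-box in these windows.
The CCAAT box was present in 33.8% of windows. Txnip had 2 copies and Arrdc4 had 6, a number reached or passed in 19 windows (0.0578%). The other members with a CCAAT box were Arrdc2 with 3 copies and Arrdc3, Txn2 and Txnrd1 with 1 each. Txnip also held the FOXO motif GTAAACA (3.17% of windows) at -121 to -115. The core of the antioxidant response element, TGACNNNGC (10.2% of windows), occurred in Arrdc4 and in 1 window of Txnrd1. No 2 of these matches overlapped within the Txnip or the Arrdc4 window, and a match describes letters only.

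The labelled cell type was checked against its markers. All 10 beta-cell markers were measured, and their levels, in multiples of each array's 75th percentile, summed to 2594 on the CSE-KO array and 2797 on the CSE-WT array. Ins1 differed by -0.12 and Ins2 by -0.06 log2 units. Other pancreatic cells were represented too, since the 8 markers of other endocrine cells (Gcg, Sst and Ppy among them) summed to 1562 and 1683, and the 8 acinar markers to 942 and 1025, on the CSE-KO and CSE-WT arrays. The 2 Cth probes read 3.15 and 3.68 intensity units on the CSE-KO array and 13.5 and 12.8 on the CSE-WT array, and neither was well above background on either array, so Cth does not check the labels. Over all measured genes the median difference was -0.01, with 159 genes (0.718%) higher and 197 (0.89%) lower in CSE-KO by 2-fold or more. Of the lower ones, 118 lay in small patches of neighbouring spots that were brighter on 1 array, against 8 of the higher ones. None of the members' gene values came from such a patch.

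Of the 10 members, Txnip was the only one past 1.5-fold, set against 3.09% of measured genes past this size upward in CSE-KO and 2.51% downward. No member was past 2-fold, against 1.61% of measured genes in either direction. Counting direction alone, 6 members were higher and 4 were lower in CSE-KO, with a median difference of 0.04 log2 units. Of all 22140 measured genes, 10771 were higher and 11369 were lower. The 5 alpha-arrestins (Txnip and Arrdc1 to Arrdc4) had a median of 0.24 with 4 higher, and the 5 thioredoxins and reductases had a median of -0.06 with 2 higher. At the level of probes, 4 of the 15 measured were at least 1.5-fold higher in CSE-KO, where 3.44% of all measured probes were, and these belonged to Txnip (both probes), Arrdc4 and Txn2 (1 each). The paragraphs below give every probe.

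**Figure D1:**
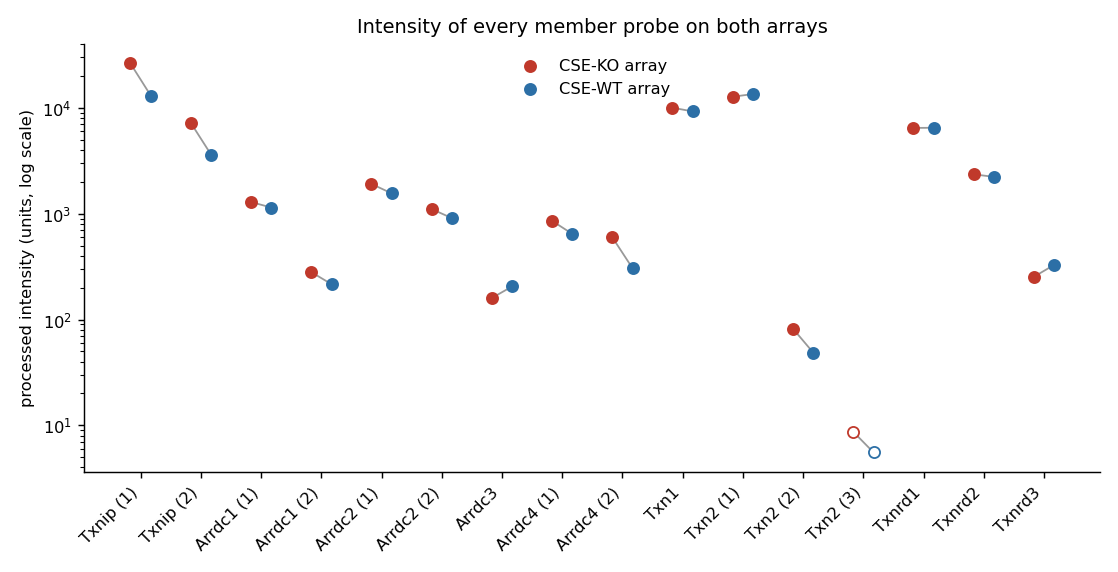
Processed intensity of every member probe (log axis, intensity units) on the CSE-KO array and the CSE-WT array, 1 array each. Open points mark a probe not well above background on both arrays. The 2 points of the brighter Txnip probe stand apart, at 26280 units in CSE-KO and 12997 in CSE-WT, and those of Txnrd1 nearly coincide.

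Txnip had the largest difference of the members, and both of its probes gave it. The probe on chromosome 3 at 96365147 to 96365206 (plus strand, mm9) read 26280 intensity units on the CSE-KO array, against 12997 on the CSE-WT array. The second probe, on the same transcript at 96364206 to 96364265, read 7252 units on the CSE-KO array and 3610 on the CSE-WT array. After scaling to the 75th percentile the differences were 0.96 and 0.95 log2 units, or 1.95-fold and 1.93-fold higher in CSE-KO. The SD of such a difference between spots, estimated from 399 probes printed 10 times, was 0.05 at a scaled level of 3, so both differences were many times the technical spot noise. That noise says nothing of animals or preparations.

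The gap between the Txnip probes was 0.01 log2 units. Among 4463 genes with exactly 2 measured probes the median gap was 0.15, and 3.72% had a gap as small as that of Txnip. Both probes were at least 1.5-fold higher in CSE-KO for 33 of these genes (0.739%), Txnip included. A difference of this size at both probes was thus uncommon on this pair of arrays.

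By size the Txnip difference was 174th highest of all 22140 measured genes. Most of those above it had a mean level no higher than the median, and their spot noise was not counted. All 8 cycling-cell markers described below had larger differences, among them Mki67 at 1.43 with a spot SD of 0.08. Among the 11070 genes with a mean level above the median it was 16th highest, in a set where 0.659% were at least 1.5-fold higher. A total of 2033 genes were as bright on either array as Txnip was on the CSE-WT array, and in that set Txnip was 3rd highest. The 5 genes with a current symbol nearest to Txnip in the plane of the 2 scaled levels were Meg3, Reg1, Cfap300, Mcidas and Hexim2. Meg3, a maternally expressed long noncoding RNA of the islet, was the closest at a Euclidean distance of 0.15 with a difference of 0.82, and Reg1, an acinar secreted protein, was next at 0.31 with a difference of 0.61. With 2 points per gene this likeness is one of level and difference only.

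**Figure D2:**
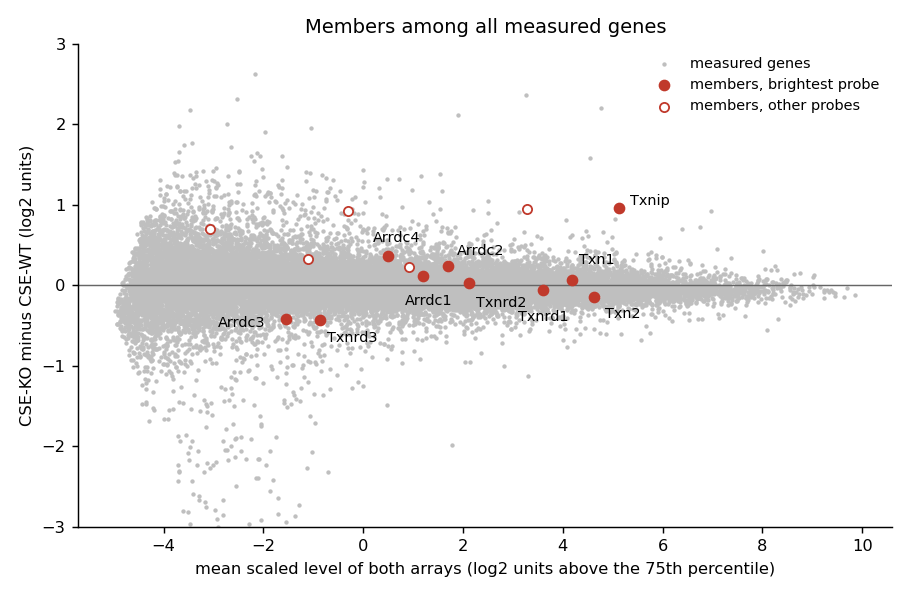
Difference between the arrays (CSE-KO minus CSE-WT, log2 units) against the mean scaled level of both arrays (log2 units relative to the 75th percentile) for all measured genes in grey, with the members' brightest probes filled and their other measured probes open. Txnip lies at 0.96 on the bright side, above the narrow band of genes of its level; 24 genes lie outside the vertical range.

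Cell markers that differed between the arrays are given beside these values. All 8 cycling-cell markers (Mki67, Top2a and others) were past 2-fold at their brightest probe, with summed levels of 7.06 on the CSE-KO array and 2.99 on the CSE-WT array. Of their 14 measured probes 13 were higher, 9 of them past 2-fold, and a second Cdk1 probe was lower, at 22.7 units in CSE-KO and 109 in CSE-WT (a difference of -2.32). All 5 measured markers of stellate cells and fibroblasts were higher (summed 3.90 in CSE-KO and 2.65 in CSE-WT, with Lum not counted as measured), as were 6 of 8 macrophage markers (28.1 in CSE-KO and 23.4 in CSE-WT). The beta-cell markers were higher in 4 of 10, with a median of -0.09. Duct markers (3 of 5 measured, with Sox9 and Cftr not above background) summed to 2.03 in CSE-KO and 1.47 in CSE-WT, endothelial markers to 72.6 in CSE-KO and 71.7 in CSE-WT, lymphocyte markers (4 of 8 measured) to 55.1 in CSE-KO and 54.7 in CSE-WT, and erythroid markers to 30.1 in CSE-KO and 41.5 in CSE-WT. The cycling and stellate markers thus stood furthest apart in proportion. The part of these markers in the Txnip difference was not tested. In such bulk samples a change in the number of cells of a type and a change in RNA per cell cannot be told apart.

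Arrdc4, an alpha-arrestin related to Txnip that also responds to glucose through Mlx-containing factors, was the other member of its family with a probe past 1.5-fold. That probe, designed to transcript variant 1 (chromosome 7, 75881905 to 75881964, minus strand, mm9), was printed at 10 positions on each array. Its spots ranged from 548 to 626 units in CSE-KO (median 597), against 257 to 336 units in CSE-WT (median 303). The 2 sets of spots did not overlap. They are repeat spots of 1 array per genotype, and how many other probes separate in this way was not counted. The difference at the 1 position that lay in a patch bright on the CSE-WT array was 0.86. Leaving out the 2 spots per array that the scanner software marked as outliers, the means were 600 ± 19.6 units in CSE-KO and 304 ± 8.77 in CSE-WT (SD over 8 spots of 1 array, not over samples), which gave a difference of 0.93 log2 units or 1.90-fold. It was the 3rd highest of the 286 measured probes printed 10 times.

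The other Arrdc4 probe gave a smaller difference. Designed to transcript variant 2 (75886496 to 75886555), it read 857 units on the CSE-KO array and 642 on the CSE-WT array, a difference of 0.36. Since it was the brighter of the pair it stands for the gene, and by it Arrdc4 missed 1.5-fold. The gap between the Arrdc4 probes was 0.57, and 8.74% of those 4463 genes had a gap as large. The size of the Arrdc4 difference thus depended on the probe, and its direction did not.

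**Figure D3:**
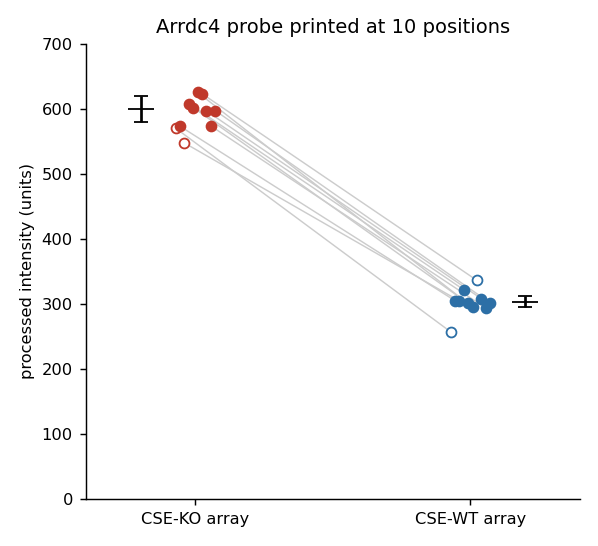
Processed intensity (units, from 0) of the Arrdc4 probe printed at 10 positions, on the CSE-KO array at the left and the CSE-WT array at the right, with grey lines joining the same position, open points for spots marked as outliers, and bars for mean ± SD of the 8 other spots. Every CSE-KO spot lies above every CSE-WT spot.

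The remaining arrestin-domain genes differed less. Arrdc2, which can bring ubiquitin ligases to membrane receptors, read 1913 units on the CSE-KO array and 1553 on the CSE-WT array at one probe (chromosome 8, 73359065 to 73359124), and 1107 and 907 at the other (73359054 to 73359113). These differences of 0.24 and 0.23 come from probes that share most of their bases and do not count as separate readings. Arrdc1, known for the budding of vesicles from the plasma membrane, read 1290 units in CSE-KO and 1143 in CSE-WT at its brighter probe (chromosome 2, 24780875 to 24780934), a difference of 0.12. Its dimmer probe (24782434 to 24782493) read 281 units in CSE-KO and 215 in CSE-WT, a difference of 0.33. Both genes were thus slightly higher in CSE-KO at every probe. Arrdc3, which acts on the beta2-adrenergic receptor and on body mass in mice, ran the other way. Its probe (chromosome 13, 81034981 to 81035040) read 160 units in CSE-KO and 206 in CSE-WT, a difference of -0.42 or 1.34-fold lower.

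The thioredoxins differed little between the genotypes, except at a dim Txn2 probe. Txn1, the cytosolic thioredoxin, read 10029 units on the CSE-KO array and 9242 on the CSE-WT array (chromosome 4, 57956677 to 57956736), a difference of 0.06. Txn2, the mitochondrial thioredoxin, read 12734 units in CSE-KO and 13507 in CSE-WT at its bright probe (chromosome 15, 77745481 to 77745540), a difference of -0.14. The dim Txn2 probe, designed to a cDNA clone (77757053 to 77757112), read 82.1 units in CSE-KO and 48.5 in CSE-WT, a difference of 0.70. The 2 measured Txn2 probes thus had opposite directions. Their gap of 0.85 was matched or passed by 3.72% of those 4463 genes. The last Txn2 probe read 8.72 units in CSE-KO and 5.54 in CSE-WT, on neither array well above background.

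Among the reductases, Txnrd1 and Txnrd2 were nearly level and Txnrd3 was lower in CSE-KO. Txnrd1, the cytosolic enzyme, read 6459 units on the CSE-KO array and 6482 on the CSE-WT array (chromosome 10, 82360230 to 82360289), a difference of -0.06. Txnrd2, the mitochondrial enzyme, read 2356 units in CSE-KO and 2227 in CSE-WT (chromosome 16, 18479106 to 18479165), a difference of 0.03. Txnrd3, the thioredoxin-glutathione reductase best known from testis, read 253 units in CSE-KO and 329 in CSE-WT (chromosome 6, 89625375 to 89625434), a difference of -0.43 or 1.35-fold lower. Of the 15 measured probes of all members, 8 were higher and 2 were lower in CSE-KO by more than 3 SD of spot noise, and 5 lay within it. Over all measured probes, 8.26% were higher and 9.18% lower by this measure. The 8 include both overlapping Arrdc2 probes, and this count was not tested. The 2 lower ones were those of Arrdc3 and Txnrd3.

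**Figure D4:**
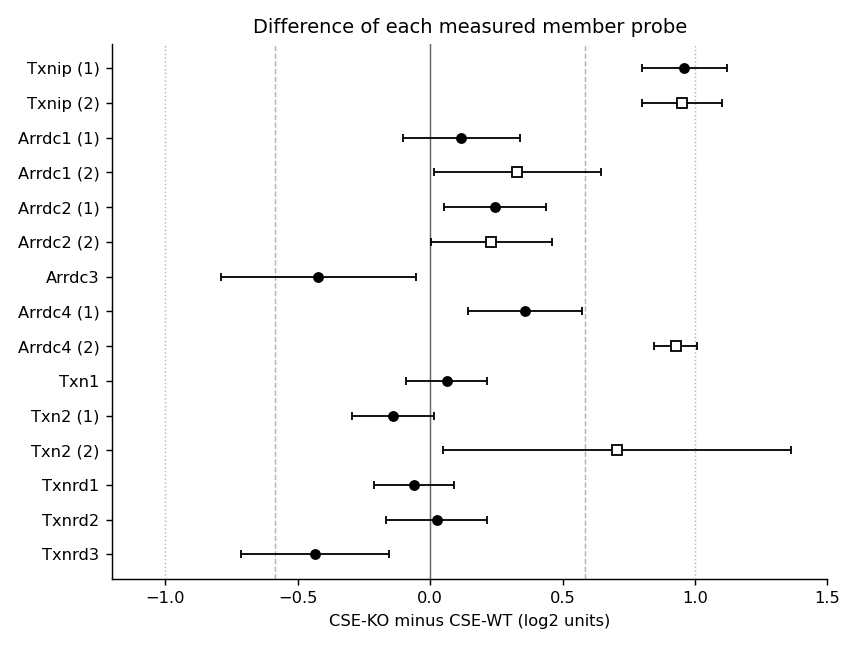
Difference between the arrays (CSE-KO minus CSE-WT, log2 units) for every measured probe of the members, with bars of 3 SD of technical spot noise, filled circles for each gene's brightest probe, open squares for other probes, dashed lines at 1.5-fold and dotted lines at 2-fold. Both Txnip probes and the Arrdc4 probe printed 10 times lie between 0.93 and 0.96, and the probes of Arrdc3 and Txnrd3 lie at -0.42 and -0.43.

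Genes around the members were described by list, beside 10771 higher and 11369 lower among all measured genes. All 15 genes in a list of thioredoxin-dependent enzymes and their relatives were measured, with 6 higher, 9 lower and a median of -0.03. The ribonucleotide reductase subunits Rrm1 and Rrm2, which make DNA precursors in dividing cells, differed by 0.36 and 0.33, and Rrm2b, the subunit of resting and p53-active cells, by -0.60 (1.51-fold lower) at its brighter probe and by -0.17 at the other. The methionine sulfoxide reductase Msrb3 read 20.5 units in CSE-KO and 192 in CSE-WT, a difference of -3.28, and its spot lay in a patch that was bright on the CSE-WT array. The 6 peroxiredoxins, peroxide-reducing enzymes many of which are recharged by thioredoxin, ranged from -0.18 for Prdx2 to 0.20 for Prdx4 at their brightest probes. Prdx6 differed by -0.17 at its brightest probe and by 0.53 at its dimmest, which read 37.1 units in CSE-KO and 24.7 in CSE-WT. These 3 were picked after their values were seen.

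Of 21 other proteins with a thioredoxin fold, 16 were measured, with 4 higher, 12 lower and a median of -0.06. Txnl1, a thioredoxin-like protein bound to the proteasome, differed by -0.36, and Txndc17, a cytosolic disulfide reductase, by -0.27. The endoplasmic reticulum proteins Txndc5 and Txndc11 were higher by 0.26 and 0.21. Not above background were Txndc2, Txndc8, Nme8, Nme9 and Nxnl2. None of the 16 passed 1.5-fold.

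Of 7 other proteins with an arrestin fold, 5 were measured, with 4 higher, 1 lower and a median of 0.04. The beta-arrestin Arrb1, which desensitises G-protein-coupled receptors, differed by 0.04, and the retromer subunits Vps26a and Vps26b by -0.17 and 0.08. Cone arrestin Arr3 read 397 units in CSE-KO and 178 in CSE-WT, past 2-fold, at a probe in a patch bright on the CSE-KO array, and differed by 0.04 at its other probe. The list was thus near level outside that patch. All 11 NEDD4-family ligases and their adaptors were measured, with 3 higher, 8 lower and a median of -0.11, and none was past 1.5-fold. The ligase Hecw2 differed by -0.47 at its brightest probe and by 0.39 at another. The adaptors Ndfip1 and Ndfip2, membrane proteins that activate these ligases, differed by -0.22 and -0.30, the second of them in a patch bright on the CSE-WT array, and the ligase Hecw1 by -0.18. Itch, a ligase known to ubiquitinate Txnip, differed by -0.11, and Nedd4 by -0.01 at its brighter probe and 0.90 at a dimmer one, values picked after they were seen.

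All 9 genes of Txnip regulation and glucose entry were measured, with 4 higher, 5 lower and a median of -0.03. Mlxip read 296 units in CSE-KO and 222 in CSE-WT, a difference of 0.36. Its other probe was dim, at 46.9 units in CSE-KO and 27.8 in CSE-WT, and differed by 0.70 with a spot SD of 0.36. Mlxipl read 16776 units in CSE-KO and 13517 in CSE-WT, a difference of 0.26, with 0.32 at its other probe. The spots of both Mlxipl probes lay in patches bright on the CSE-WT array. Both genes encode the glucose-sensing partners of Mlx, which itself differed by -0.03. The catalytic AMPK subunits Prkaa1 and Prkaa2, whose kinase marks Txnip for degradation, differed by -0.26 and -0.24. All 8 genes of selenocysteine insertion, needed to make thioredoxin reductases, were measured, with 4 higher, 4 lower and a median of 0.01. The largest differences there were -0.17 for Trnau1ap, 0.16 for Secisbp2, -0.09 for Sephs2 and 0.08 for Sepsecs.

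**Figure D5:**
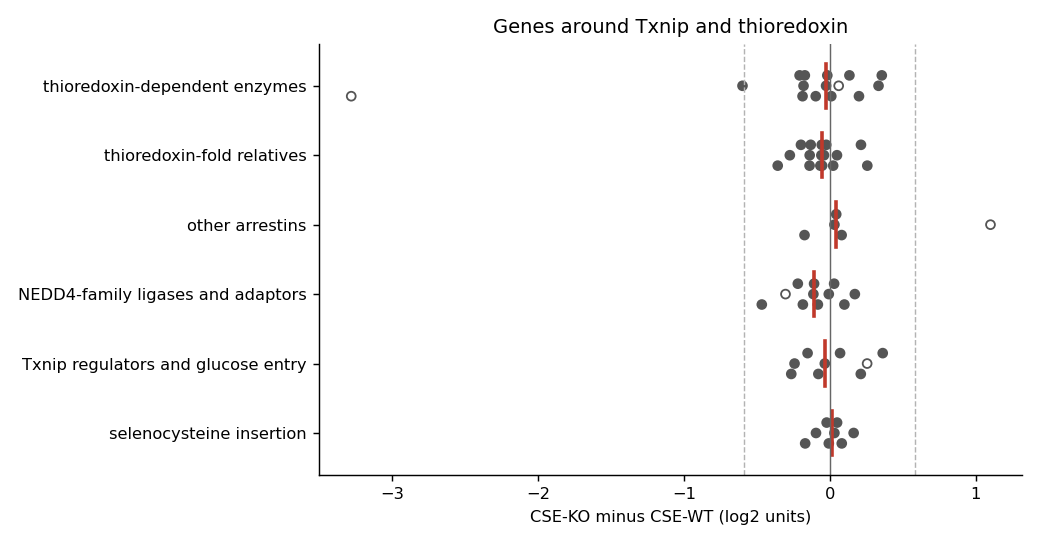
Difference between the arrays (CSE-KO minus CSE-WT, log2 units) for each measured gene of the 6 lists, with a red line at each median, dashed lines at 1.5-fold and open points for genes whose spot lay in a patch. The list medians lie between -0.11 and 0.04, against -0.01 for all measured genes, and both points farthest from 0, Msrb3 and Arr3, lie in patches.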

How the data were processed

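RNA was isolated with TRIzol and a purification column, and cRNA was labelled by a low-input Agilent method, per the labels' protocols. Agilent Feature Extraction 10.7.1.1 quantified each array, per the file headers (version 9.5.1.1 per the submitters' processing notes), and the deposited values are processed intensities per spot. Both arrays lay on 1 slide from 1 scan. Each held 62976 spots and 55681 gene probes, of which 59.6% (CSE-KO) and 57.0% (CSE-WT) were well above background. Precision is limited by the number of arrays.

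Outlier spots were left out (169 in CSE-KO, 139 in CSE-WT), spots of a probe were averaged on the log2 scale, and the 75th percentile was subtracted (540 units in CSE-KO, 519 in CSE-WT). A gene took its brightest probe above background on both arrays. Symbols were updated through a RefSeq gene table, which matched 27235 probes on accession, 3581 on symbol and 565 on an earlier symbol; 24300 kept their name. A spot was counted as in a patch when at least 3 others within 2 rows and columns, each of 20 units or more on the brighter array, differed by 1.5 log2 units or more in 1 direction, a rule chosen after seeing the data. Promoters matched 10 of 10 members in 14 windows (GRCm38.p6), and probe positions are those of the files (mm9); exons were not analysed here. Members and lists were chosen with earlier results of these data known. Named genes are all members, up to 4 genes per list with the largest absolute difference and any past 1.5-fold, Cth, cell markers and the 5 genes nearest to Txnip; Prdx2, Prdx4, Prdx6, Itch, Nedd4 and Mlx were added after their values were seen. Calculations used Python 3.11.15, numpy 2.4.6, pandas 2.3.3, R 4.3.3 and limma 3.58.1 and were tested on simulated data. Alternatives were other scalings, background corrections, probe choices and filters, and the authors' deposited table of probe intensities.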

Additional observations from a re-analysis of the deposited data

How the results depend on the processing

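No paired analysis was possible because each genotype had 1 array. Txnip was higher in CSE-KO under all 10 alternatives, by 0.88 log2 units or more, and cyclic loess put it just past 2-fold. Its value was 0.90 with normexp and quantile normalization, 0.88 with normexp and the 75th percentile, and 0.88 with the local median of neighbouring spots removed. Arrdc4 was higher under all 11, at 0.64 with the mean of its probes, 0.45 with the local median removed and 0.93 with the probe printed 10 times, an alternative chosen after seeing the data. The median of the 10 members was 0.14 with the mean of probes and -0.004 with the local median removed. The local median turned Txn1 to -0.01, the mean of probes turned Txn2 to 0.28, and Txnrd2 also fell below 0 under 1 alternative, at -0.01; the other members kept their sign under all 10. The share of genes past 2-fold, 1.61% in the values reported, was 0.605% under either normexp setting and 7.38% without the filter on dim probes, which adds genes with wide spot noise, and 5.60% were past 1.5-fold. Leaving out probes in patches, the genes past 2-fold were 154 higher and 81 lower. The median of the other arrestins was 0.13 with the local median removed. Causes of these shifts were not tested. The limits are 1 array per genotype, an unknown number of animals, and spot noise of 0.21 log2 units at a scaled level of -3, where dim probes have little precision.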
